A study of Mus musculus with 11 samples.

Results

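The poly(C)-binding protein genes Pcbp1, Pcbp2, Pcbp3, Pcbp4 and Hnrnpk were examined in the cerebral cortex of 5xFAD mice with and without Abi3. These 5 genes were matched by symbol among the 53700 gene identifiers of the count tables, and all 5 were among the 17626 genes tested. Pcbp2 was selected because it differed between the genotypes in these same animals, so its genotype difference is given as a description with no test, and the other 4 members were taken as its relatives. All animals were female 5xFAD mice aged 8 months, labelled as strain C57BL/6. They carried the 5xFAD transgenes, which are of human origin, hold mutations of familial Alzheimer's disease and are driven by the neuronal Thy1 promoter. The Abi3+/+ group (labelled Abi3 WT) had 6 mice with both copies of Abi3, and the Abi3-/- group (labelled Abi3 KO) had 5 mice homozygous for a definitive null allele. The line that carries these transgenes came from a B6SJL hybrid background and the null allele from C57BL/6N, and all of these mice were heterozygous for a Trem2 allele of the SJL background, as the methods state. Each library came from 1 animal, prepared by QuantSeq, which primes on the poly(A) tail and reads near the 3′ end of the transcript.

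Poly(C)-binding proteins bind single-stranded, cytosine-rich stretches of RNA and DNA through 3 KH domains, a fold found in many RNA-binding proteins. PCBP1 and PCBP2, also called hnRNP E1 and E2, stabilize mRNAs such as that of alpha globin, regulate translation and splicing, and serve as chaperones that hand iron to ferritin and to iron enzymes. PCBP2 also brings the ubiquitin ligase ITCH to MAVS, an adaptor of antiviral signalling. PCBP3 and PCBP4 are less studied relatives, and hnRNP K is the most distant member, with roles in transcription, splicing and signalling.

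The members resemble each other in their coding sequence, which matters for assigning short reads. Between the coding sequences of Pcbp2 and Pcbp1, 81.6% of 1053 aligned bases were identical, and the longest identical run was 33 bases. The identity with Pcbp2 was 73.3% for Pcbp3, 64.2% for Pcbp4 and 48.0% for Hnrnpk. The stretch below, 75 coding bases from the last KH domain in the GRCm39 genome, is shown because it is among the most alike between the members. Capitals mark bases that differ from Pcbp2, of which there were 8 in Pcbp1, 11 in Pcbp3, 15 in Pcbp4 and 33 in Hnrnpk.
Pcbp2: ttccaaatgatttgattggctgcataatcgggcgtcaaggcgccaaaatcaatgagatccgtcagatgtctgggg
Pcbp1: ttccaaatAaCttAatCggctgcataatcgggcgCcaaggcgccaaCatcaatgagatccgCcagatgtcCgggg
Pcbp3: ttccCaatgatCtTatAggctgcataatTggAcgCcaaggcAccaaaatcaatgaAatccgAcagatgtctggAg
Pcbp4: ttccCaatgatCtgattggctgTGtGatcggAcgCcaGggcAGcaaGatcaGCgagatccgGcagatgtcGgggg
Hnrnpk: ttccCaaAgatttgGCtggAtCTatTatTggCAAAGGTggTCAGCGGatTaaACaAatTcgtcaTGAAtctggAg
The Pcbp2 stretch lies at chr15:102398232-102399132 on the plus strand and spans 2 exons, and the Pcbp1 stretch lies within 1 exon at chr6:86501967-86502041 on the minus strand. The Pcbp3 stretch is at chr10:76599162-76603708 (minus strand), that of Pcbp4 at chr9:106339603-106339770 (plus strand) and that of Hnrnpk at chr13:58541116-58541516 (minus strand), each over 2 exons.

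Because the library method reads near the poly(A) tail, the 3′ ends were compared separately. Here 1 annotated transcript of each gene was used, of 3318 bases for Pcbp2 and 1830 for Pcbp1. The last 400 bases of the Pcbp1 transcript matched bases 1424 to 1806 of the Pcbp2 transcript, not its end, at 76.6% over 398 bases. No other match between a member's last 400 bases and another member's transcript exceeded 28 bases. Other transcripts of these genes, including those with another 3′ end, were not compared. Pcbp2 has 51 annotated coding transcripts with several 3′ ends. Of these transcripts, 22 end at position 102408805 of chromosome 15, and 4 end 5917 bases nearer to the promoter, at 102402888. The gene-level counts add these ends together, so use of one end or the other could not be separated. The poly(A) signal AATAAA, searched on the transcript strand, was present in the last 50 bases of the transcripts compared for Pcbp4 and Hnrnpk, and the variant ATTAAA in those of Pcbp1 and Pcbp2. The Pcbp2 transcript that ends at the nearer position had AATAAA, and neither motif was found for Pcbp3. For comparison, 57.4% of 21590 canonical coding transcripts held AATAAA and 70.8% held either motif in that window.

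Near-identical copies elsewhere in the genome could also take or lose reads. Places of at least 90% identity over at least 200 exonic bases were searched for every member. Pcbp2 had 2 such places, both processed pseudogenes. Gm6140 on chromosome 3 (chr3:4955364-4955732) matched at 90.6% over 371 bases and had 0 counts in all libraries. Gm12186 on chromosome 11 (chr11:48887527-48887752) matched at 92.5% over 227 bases and had 3 counts, all in 1 animal, against 3837 counts for Pcbp2. Hnrnpk matched the pseudogenes Gm7964 on chromosome 7, at up to 100% over 242 bases and with 5 counts in total, and Gm4130 on chromosome 13, with 0 counts. It also matched 256 bases on chromosome Y outside annotated exons. Pcbp1 matched 2 adjoining stretches on chromosome 6 in no annotated exon, the 120 places that Pcbp3 matched were all copies of 1 interspersed repeat, and Pcbp4 had no such copy. Reads that align to several places were dropped by the counting and could not be recovered.

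The libraries held 3202310 to 5501958 reads in genes, so that 3 counts, the smallest amount taken as detectable, corresponded to 0.545 to 0.937 CPM (counts scaled so that libraries have the same total). All 5 members were far above this level in every animal, with 55 to 772 counts. Abi3 itself had 10 to 38 counts in the Abi3+/+ libraries and 0 in 4 of the 5 Abi3-/- libraries, with 2 counts in Abi3-/- replicate 2. Reads outside annotated genes differed with genotype, at 65.9 ± 3.67 (SD, n = 6) per 100 reads in genes in Abi3+/+ and 54.0 ± 4.99 (SD, n = 5) in Abi3-/- (exact permutation test, two-sided, p = 0.00649). Summed markers of neurons, astrocytes, oligodendrocytes, microglia, endothelium, choroid plexus, striatum, meninges and blood overlapped between the genotypes (two-sided exact permutation p from 0.121 to 0.944 over these 9 lists). The neuronal markers of the labelled tissue summed to 3821 to 4853 CPM over all animals. The choroid plexus sum ranged from 15.6 to 985 CPM in Abi3+/+ and from 23.1 to 640 CPM in Abi3-/-. The striatal sum ranged from 448 to 699 CPM in Abi3+/+ and from 370 to 603 CPM in Abi3-/-. All 6 striatal and all 5 astrocyte markers had lower fitted levels in Abi3-/-, and all 5 oligodendrocyte markers higher, with 0 past the adjusted threshold. The part of these tissues and cells in the results was not tested. In whole cortex, fewer cells of a type and less RNA per cell cannot be told apart.

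Pcbp2 (ENSMUSG00000056851, chr15:102378928-102408805) was higher in every Abi3-/- cortex than in any Abi3+/+ cortex. Its normalized count, scaled by the size factor of each library, was 305, 302, 313, 271, 169 and 163 in Abi3+/+ replicates 1 to 6. In Abi3-/- replicates 1 to 5 it was 490, 491, 380, 452 and 505. The lowest Abi3-/- animal was replicate 3, and Abi3+/+ replicates 5 and 6 were well below the other 4. The means were 254 ± 69.5 (SD, n = 6) in Abi3+/+ and 463 ± 50.9 (SD, n = 5) in Abi3-/-. The fitted log2 fold change was 0.87 (SE 0.157, 95% interval 0.56 to 1.18), a fold of 1.83 (1.48 to 2.26). The lowest Abi3-/- value exceeded the highest Abi3+/+ value by a ratio of 1.21. Of all genes tested, 0.539% had no overlap between the groups with Abi3-/- higher, and 0.34% passed the adjusted threshold in that direction, but nothing is read from these shares for Pcbp2, which was chosen on this contrast.

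**Figure D1:**
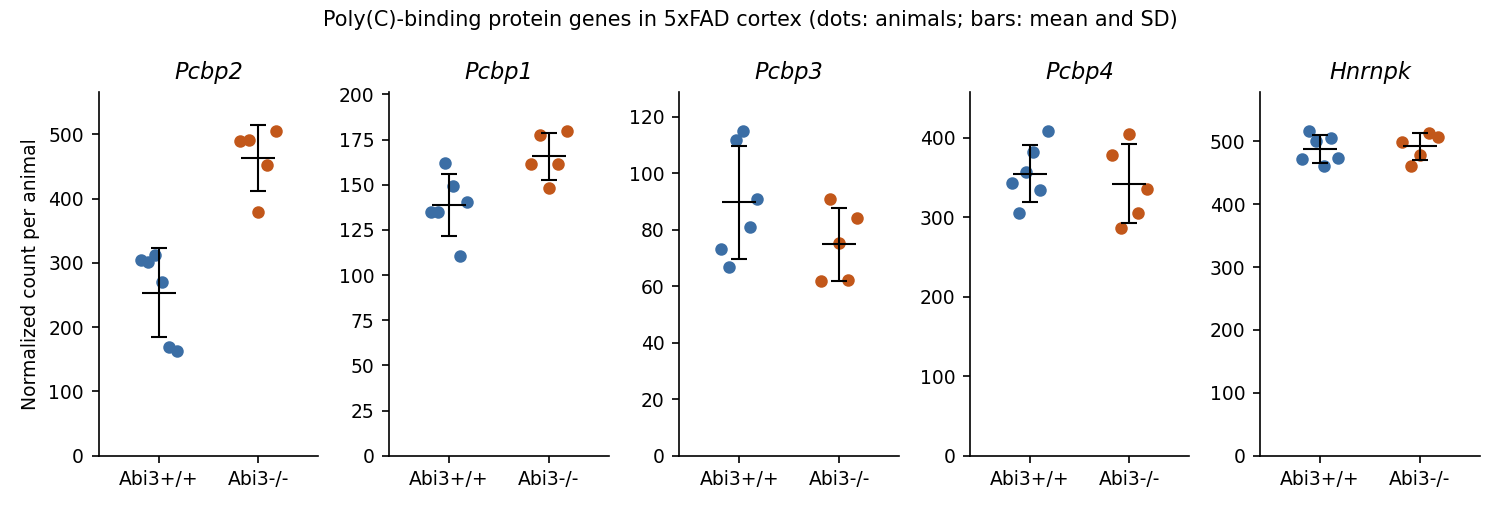
Normalized counts (y axis, linear, from 0, a separate scale in each panel) of Pcbp2, Pcbp1, Pcbp3, Pcbp4 and Hnrnpk in Abi3+/+ (blue, n = 6) and Abi3-/- (orange, n = 5) cortex. Dots are animals in order of replicate number and bars are the mean and SD; the groups are apart for Pcbp2, where the highest Abi3+/+ value was 313 and the lowest Abi3-/- value 380, and overlap for the other 4 genes.

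The spread of Pcbp2 among the Abi3+/+ animals was wide for a gene of its level. Its coefficient of variation was 27.4% in Abi3+/+, above that of 98.9% of the 1543 genes with a mean count within 1.5 times its own, whose median was 11.4%. In Abi3-/- it was 10.98%, close to the median of the same genes there, also 11.4%. Counting error alone would give about 5.35%. Without Abi3+/+ replicate 5 the log2 fold change was 0.77, and it was also 0.77 without replicate 6; over all single omissions it ran from 0.77 to 0.94.

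Reads outside genes differed with genotype, the contrast on which Pcbp2 was chosen. The share and genotype are largely confounded in these animals, so their parts in the Pcbp2 difference cannot be told apart. With this share as a covariate, the log2 fold change of Pcbp2 was 0.65 (SE 0.285, 95% interval 0.09 to 1.21). One animal of each genotype had a share within the range of the other genotype. Abi3-/- replicate 4, with 62.5 reads outside genes per 100 in genes, had a Pcbp2 count of 452, and Abi3+/+ replicate 3, with 59.3, had 313. Single animals cannot separate the share from genotype, and the part of the share in the Pcbp2 difference was not tested.

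**Figure D2:**
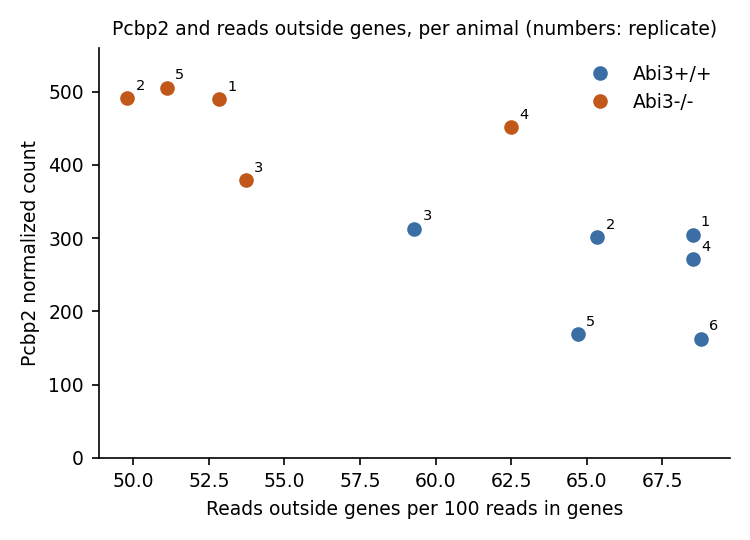
Pcbp2 normalized count (y axis, from 0) against reads outside genes per 100 reads in genes (x axis, not from 0) for each animal, labelled by replicate number, in Abi3+/+ (blue, n = 6) and Abi3-/- (orange, n = 5). The Abi3-/- animals lie at 49.8 to 62.5 and the Abi3+/+ animals at 59.3 to 68.8 on the x axis, and the ranges overlap only through Abi3-/- replicate 4 and Abi3+/+ replicate 3.

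Pcbp1 (ENSMUSG00000051695, chr6:86501468-86504330, minus strand), the closest relative of Pcbp2 and its partner as an iron chaperone, did not pass the threshold. Its normalized counts in Abi3+/+ had a lowest value of 111, a median of 138 and a highest value of 162, and in Abi3-/- replicates 1 to 5 they were 162, 178, 148, 162 and 180. All 5 Abi3-/- values were above the Abi3+/+ mean, but only 2 were above every Abi3+/+ value. The log2 fold change was 0.26 (SE 0.135, 95% interval -0.003 to 0.53), with a DESeq2 adjusted p of 0.426 over all genes. The two-sided exact permutation test of this single value gave p = 0.0216, unadjusted, where the smallest p that 462 splits of the animals allow is 0.00216. With reads outside genes as a covariate the estimate was 0.13 (SE 0.255).

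Pcbp3 and Pcbp4 did not differ detectably. Pcbp3 (ENSMUSG00000001120, chr10:76593536-76797951, minus strand), the least counted member, had a lowest value of 66.9, a median of 86.1 and a highest value of 115 in Abi3+/+. In Abi3-/- replicates 1 to 5 it had 61.9, 90.9, 75.2, 62.1 and 84.2. The groups overlapped between 66.9 and 90.9. Of the 5 Abi3-/- values, 4 were below the Abi3+/+ mean and 2 were below every Abi3+/+ value. The log2 fold change was -0.26 (SE 0.199, 95% interval -0.65 to 0.13, DESeq2 adjusted p = 0.647, two-sided exact permutation p = 0.188). With reads outside genes as a covariate it was -0.62 (SE 0.370), still short of the threshold.

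Pcbp4 (ENSMUSG00000023495, chr9:106330168-106341222, plus strand) had a lowest value of 306, a median of 350 and a highest value of 408 in Abi3+/+. In Abi3-/- replicates 1 to 5 its counts were 379, 286, 405, 305 and 336. Both groups covered nearly the same range. The log2 fold change was -0.05 (SE 0.111, 95% interval -0.27 to 0.17, DESeq2 adjusted p = 0.909, two-sided exact permutation p = 0.617).

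Hnrnpk (ENSMUSG00000021546, chr13:58536691-58551339, minus strand), the most abundantly counted member, was the steadiest. Its lowest, median and highest normalized counts were 461, 487 and 517 in Abi3+/+, and its values in Abi3-/- replicates 1 to 5 were 499, 461, 479, 514 and 508. The groups covered the same range. The log2 fold change was 0.01 (SE 0.077, 95% interval -0.14 to 0.16, DESeq2 adjusted p = 0.980, two-sided exact permutation p = 0.790), an interval that leaves out a change of the size fitted for Pcbp2. The coefficient of variation of Hnrnpk was 4.54% in Abi3+/+ and 4.47% in Abi3-/-, near the 4.52% of counting error, and below that of all but 4.60% and 5.07% of genes of like depth. Of the 4 tested members, 0 passed the adjusted threshold by DESeq2 or by edgeR and limma, and 0 had an unadjusted DESeq2 p under 0.05, against 0.539% (0.34% higher and 0.199% lower) and 8.58% of all genes tested. These shares are over all 17626 genes tested, of which only 6487 received an adjusted p, as these 4 members did.

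**Figure D3:**
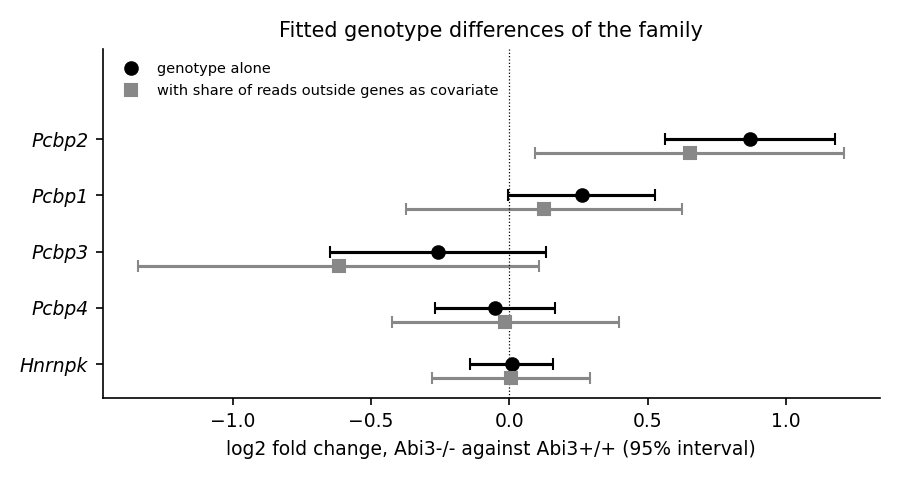
Fitted log2 fold change, Abi3-/- (n = 5) against Abi3+/+ (n = 6), of the 5 members (x axis, bars are 95% intervals) with genotype alone (black circles) and with reads outside genes as a covariate (grey squares). The Pcbp2 estimate was 0.87 with genotype alone and 0.65 with the covariate, and the intervals of the other 4 genes include 0 in both fits.

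The make-up of the family followed Pcbp2, which is described without a test because Pcbp2 enters each measure. QuantSeq yields about 1 fragment a transcript, so counts of different genes were set side by side without division by length, although priming can differ between their ends. Pcbp2 made up 19.0% ± 4.48 (SD, n = 6) of the members' summed normalized counts in Abi3+/+ and 30.1% ± 2.69 (SD, n = 5) in Abi3-/-. There were 1.82 ± 0.425 (SD, n = 6) Pcbp2 counts for each Pcbp1 count in Abi3+/+ and 2.79 ± 0.166 (SD, n = 5) in Abi3-/-. The mean Pcbp2 count was below that of Pcbp4 in Abi3+/+ and above it in Abi3-/-, although Pcbp4 stayed higher in Abi3-/- replicate 3. Pcbp2 reached 0.520 ± 0.142 (SD, n = 6) of the Hnrnpk count in Abi3+/+ and 0.943 ± 0.107 (SD, n = 5) in Abi3-/-. The sum of the 4 members other than Pcbp2 was 1072 ± 50.7 (SD, n = 6) and 1074 ± 42.9 (SD, n = 5).

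Genes that lie around Pcbp2 were examined because overlapping or adjoining transcripts can share reads. There were 25 annotated genes that start within 200 kb of the Pcbp2 gene, counted from its nearer end. Of these, 14 were tested and 5 received an adjusted p from DESeq2. By DESeq2, edgeR or limma 0 passed the threshold, and 0 had an unadjusted DESeq2 p under 0.05. Over all genes tested the DESeq2 shares were 0.539% and 8.58%, and 0 past the threshold among so few genes is near that share. Prr13, which ends 3.92 kb upstream on the same strand, had a log2 fold change of 0.34 (SE 0.197, DESeq2 adjusted p = 0.503). Map3k12, a kinase of axonal injury signalling on the opposite strand that overlaps the end of Pcbp2 by 2789 bases, had -0.27 (SE 0.173, DESeq2 adjusted p = 0.551). The counting used strand, so reads of this gene were kept apart from those of Pcbp2. Pfdn5, a prefoldin chaperone subunit, had 0.16 (SE 0.097), and Sp1, a transcription factor of GC-rich promoters, -0.10 (SE 0.146). The other 4 neighbours whose mean normalized count reached 10 were Mfsd5 at -0.06, Myg1 at 0.17, Aaas at 0.09 and Atf7 at -0.33.

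**Figure D4:**
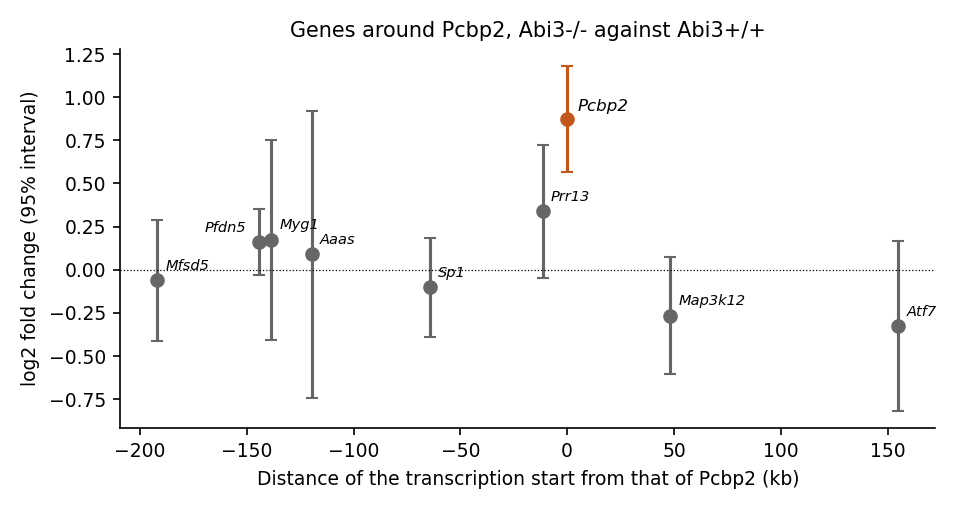
Log2 fold change, Abi3-/- (n = 5) against Abi3+/+ (n = 6), with 95% intervals (y axis) of Pcbp2 (orange) and of neighbouring genes whose mean normalized count reached 10 (grey), by the distance of their transcription start from that of Pcbp2 in kb (x axis, negative upstream). Prr13, whose start is nearest, was at 0.34 and the intervals of all 8 neighbours include 0.

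Genes tied to the family by structure or function were then counted in the same fit. Over all genes tested, 0.539% passed the DESeq2 threshold and 8.58% had an unadjusted DESeq2 p under 0.05. For lists this small, 0 past the threshold is near that share. Among 28 other hnRNP genes, which package and process nuclear RNA, all were tested and 0 passed the threshold by DESeq2, edgeR or limma, and the median log2 fold change was -0.06 against -0.003 over all genes tested. DESeq2 gave an adjusted p to 23 of the 28. Among those with the highest counts, Hnrnpu had a log2 fold change of -0.04 (SE 0.071) and Hnrnpdl -0.14 (SE 0.085). Only Hnrnph3, named after its values were seen, had an unadjusted p under 0.05, at -0.36 (SE 0.141, DESeq2 adjusted p = 0.219). Of 30 other KH-domain genes, 28 were tested, 18 received an adjusted p from DESeq2 and 0 passed by these 3 tools, with a median of 0.04. Qk, the quaking splicing regulator of glia, had a log2 fold change of -0.06 (SE 0.080), Ankrd17 0.02 (SE 0.073) and Fubp1 -0.08 (SE 0.093). Only Khdrbs2, a neuronal splicing regulator also named after its values were seen, had an unadjusted p under 0.05, at -0.54 (SE 0.213, DESeq2 adjusted p = 0.213).

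The 14 genes of iron storage, transport and iron-dependent enzymes, some of which receive iron from PCBP1 and PCBP2, were all tested. By the same tools 0 passed the threshold, against 0.539% of all genes tested by DESeq2. The median log2 fold change was 0.09, and 3 of 14 had an unadjusted DESeq2 p under 0.05, against 8.58% of all genes tested. An adjusted p was given to 9 of the 14. Fth1, the ferritin heavy chain, had 0.10 (SE 0.061, DESeq2 adjusted p = 0.543). Egln1, a prolyl hydroxylase that needs iron, had 0.27 (SE 0.132, DESeq2 adjusted p = 0.387) and Tfrc, the transferrin receptor, -0.31 (SE 0.141, DESeq2 adjusted p = 0.328), both with an unadjusted p under 0.05. So did Glrx3, an iron-sulfur glutaredoxin named after its values were seen, at 0.27 (SE 0.132, DESeq2 adjusted p = 0.372). Its normalized counts did not overlap, at 113 to 133 in Abi3+/+ and 135 to 172 in Abi3-/-, as was so for 0.539% of all genes tested with Abi3-/- higher.

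Of 9 mRNAs that members are reported to bind, 8 were tested, and the median log2 fold change was -0.84. By the same tools 0 passed, against 0.539% of all genes tested by DESeq2. Most of these have few counts in cortex, and only 1 of the 8 received an adjusted p. That was Nefm, a neurofilament subunit, at 0.08 (SE 0.120, DESeq2 adjusted p = 0.839). Cdkn1a, a cell cycle inhibitor, had -0.06 (SE 0.277). Hba-a1, an alpha globin gene with a near-identical copy in Hba-a2, had -1.58 (SE 1.17), and Hba-a1 and Hba-a2 are among the blood markers, whose sum ranged from 6.73 to 97.4 CPM in Abi3+/+ and from 2.09 to 107 CPM in Abi3-/-. Col1a1, a collagen gene named after its values were seen, alone had an unadjusted p under 0.05, at -0.93 (SE 0.436).

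In the MAVS pathway, 8 of 8 genes were tested, with a median log2 fold change of 0.01. By the same tools 0 passed, against 0.539% of all genes tested by DESeq2. Only 2 of the 8 received an adjusted p from DESeq2, so the other 6 could not pass in that fit. Itch, the ligase that acts with PCBP2 on MAVS, had 0.01 (SE 0.155, DESeq2 adjusted p = 0.985). Tbk1, a kinase downstream of MAVS, had -0.05 (SE 0.190) and Irf3, its transcription factor substrate, 0.002 (SE 0.326). Ifih1, the RNA sensor MDA5, named after its values were seen, alone had an unadjusted p under 0.05, at 0.94 (SE 0.361), with 9.42 to 26.1 normalized counts in Abi3+/+ and 18.1 to 39.4 in Abi3-/- and no adjusted p because of its low count.

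**Figure D5:**
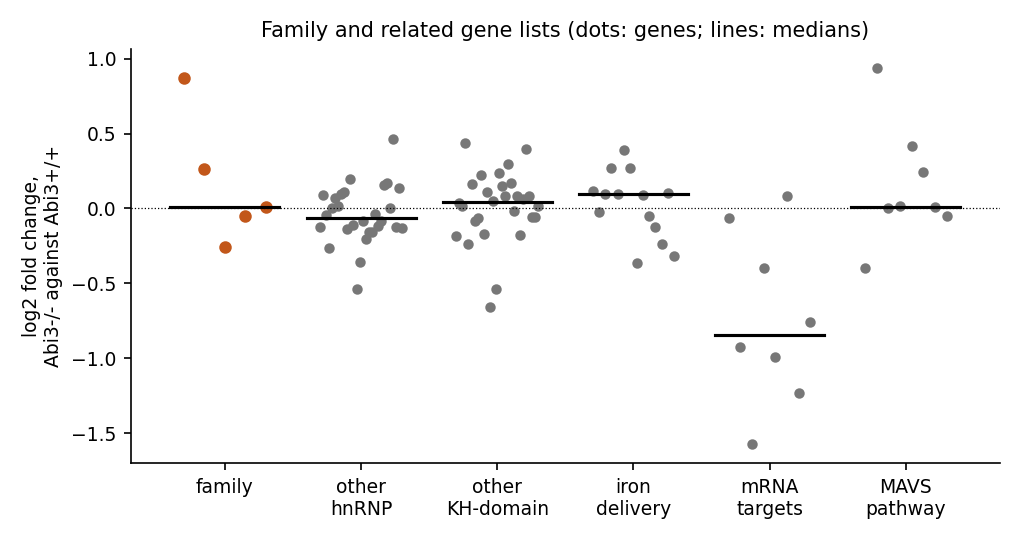
Log2 fold change, Abi3-/- (n = 5) against Abi3+/+ (n = 6), of each tested gene (dots) of the family (orange) and of the related lists (grey), with the median of each list as a line (y axis). Pcbp2 is at 0.87 and was chosen on this contrast, so nothing is read from its place beside the lists. Ifih1, at 0.94, is the highest gene of the MAVS list.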

How the data were processed

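Cortical RNA of 11 female 5xFAD mice was sequenced by QuantSeq. Per the study's methods and processing notes, the authors trimmed adapters and poly(A) stretches, aligned reads with STAR (version 2.7.3a) to GRCm39, and counted uniquely aligned reads by strand with HTSeq (version 0.9.1). The deposited values are raw counts per Ensembl gene, 1 file an animal. No collapsing of PCR copies is stated, so floors cover counting error only. Names and positions came from a more recent GENCODE annotation of the same build, which matched 52610 of 53700 identifiers (98.0%).

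Genotype was the only term in DESeq2 (version 1.42.0, R version 4.3.3). Genes with at least 10 counts in total were fitted, and 17626 genes whose mean normalized count reached 1.5 were kept. The threshold was an adjusted p (Benjamini-Hochberg) of up to 0.05, with independent filtering aimed at 0.05, which left 6487 genes with an adjusted p. Of all genes tested, 95 passed (60 higher and 35 lower in Abi3-/-). Normalized counts are counts divided by DESeq2 size factors. Single values were compared by exact permutation over the 462 splits of the animals. Copies were searched with BLAST (version 2.17.0) and coding sequences aligned with MAFFT (version 7.526). The fits were tested on simulated data.

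The alternatives were edgeR (version 4.0.16), limma (version 3.58.1), TMM factors, other filters on low counts, other filtering targets, the replicate number as a block, reads outside genes as a covariate, 1 surrogate variable (sva version 3.50.0), the counts of copies added to the members, and leaving out each animal. Named genes were Abi3, the members, their copies with a count, neighbours whose mean normalized count reached 10, up to 3 genes a list with the highest mean count, and the 5 genes most like Pcbp2 over the animals. Genes outside this rule are said to be so where named, and 1 gene that the rule includes is not reported here. The members and lists were chosen with earlier results of these data known. The labels give separate animals as replicates.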

Additional observations from a re-analysis of the deposited data

Results flagged for a closer look

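Of 12 groups of animals examined for a value far from the others, covering the 5 members and Abi3 in both genotypes, 1 had such a value, and 0.6 would be expected by chance. Abi3 had a normalized count of 2.02 in Abi3-/- replicate 2, where the other 4 Abi3-/- animals had 0. This value rests on 2 counts, under the floor of 3 counts.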

How the results depend on the processing

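The log2 fold change of Pcbp2 ran from 0.65 to 0.90 over the alternatives that did not leave out a single animal, and from 0.77 to 0.94 when each animal was left out. Corresponding ranges without each animal were 0.20 to 0.31 for Pcbp1, -0.34 to -0.17 for Pcbp3, -0.12 to 0.00702 for Pcbp4 and -0.00779 to 0.0318 for Hnrnpk. The direction of Pcbp4 turned without Abi3-/- replicate 2 (0.00702), and that of Hnrnpk turned without Abi3+/+ replicate 4 (-0.00779), Abi3-/- replicate 4 (-0.00646) or Abi3-/- replicate 5 (-0.00122), all within 1 standard error of 0. The adjusted p of the 4 tested members stayed above the threshold in every fit that gave one. The lists and the neighbours of Pcbp2 had a count of 0 in every alternative run on them, which leaves out the counts of copies added, run on the members and on the number of genes past the threshold.

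The number of genes past the threshold, 95, was 44 with edgeR, 24 with limma, 58 with independent filtering off, 3 with reads outside genes as a covariate and 46 to 120 when each animal was left out; the cause of these shifts was not tested. The lowest counts without 1 animal were 46 without Abi3-/- replicate 2, 47 without Abi3-/- replicate 5, 48 without Abi3+/+ replicate 6, and 61 without Abi3+/+ replicate 1 or Abi3-/- replicate 1.

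Replicate numbers 1 to 5 are shared by both groups, and the labels do not say whether they pair the animals. The deviations of same-numbered animals correlated at 0.040 on average (-0.020 to 0.123), and those of other pairs at -0.008. With the number as a block, over 10 animals without Abi3+/+ replicate 6, the log2 fold change was 0.79 for Pcbp2, 0.27 for Pcbp1, -0.24 for Pcbp3, -0.02 for Pcbp4 and 0.002 for Hnrnpk, and 33 genes passed the threshold.

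Depth limits Pcbp3 most among the members, with 55 to 135 counts an animal.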

Other observations

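The genes whose levels followed Pcbp2 most closely among animals of the same genotype were Lmbrd2, Lzts3, Adgra1, Anp32e and Snx14. They were ranked by Pearson's r of log2(normalized count + 1) after subtraction of the genotype mean, over 11 animals and 7779 genes whose mean normalized count reached 50, and are given as a description. The r was 0.92 for Lmbrd2, 0.90 for Lzts3, 0.90 for Adgra1, 0.88 for Anp32e and 0.87 for Snx14, and the corresponding Spearman rho was 0.94, 0.83, 0.85, 0.80 and 0.78. Without Abi3+/+ replicates 5 and 6, the 2 animals with the lowest Pcbp2, r was 0.86, 0.87, 0.80, 0.75 and 0.60. The subtracted genotype means were still those of all 11 animals. These values of r can therefore hold an offset between the genotypes and do not measure likeness within a genotype alone. The genotype differences of these genes were small, with a log2 fold change of 0.11 (SE 0.106) for Lmbrd2, 0.21 (SE 0.169) for Lzts3, -0.02 (SE 0.110) for Adgra1, 0.15 (SE 0.120) for Anp32e and -0.24 (SE 0.146) for Snx14, none past the threshold by DESeq2.

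On the same measure Pcbp1 was the most similar member, with r = 0.61 (rho 0.60) and rank 303 of 7779. Hnrnpk had r = 0.08 at rank 3309, Pcbp3 r = 0.04 at rank 3610 and Pcbp4 r = -0.38 at rank 6701. The points share their libraries and size factors.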
